A study of Oryza sativa with 81 samples.

Results

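Young panicles of 4 rice hybrids were compared by the parent from which they took one of their genomes, R998 or R308. The R998 hybrids were WY998, the cross of WFB with R998, and RY998, the cross of RFB with R998. The R308 hybrids were WY308, the cross of WFB with R308, and RY308, the cross of RFB with R308. The members are 12 libraries, 3 for each hybrid, out of 81 in the series. Line and tissue as labelled gave the groups, 6 libraries against 6, and the difference was averaged over the other parent, WFB or RFB. R998, R308, WFB and RFB are inbred lines sequenced beside the hybrids, and the series also holds WR (WFB with RFB) and 2 further tissues, young seedlings and filling panicles. All plants were grown in a field with no treatment labelled, and total RNA was depleted of ribosomal RNA and sequenced with strand kept. Whether the 3 replicates of a line came from separate plants is not labelled, and p-values measure the spread between these libraries, which may be technical.

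A first-generation hybrid carries one copy of each gene from either parent. Where a difference lies in the gene itself or in the sequence beside it, the hybrid carries both forms and its RNA level tends towards the middle of the parents. Where a difference lies in a factor acting on many genes, a hybrid may lie near one parent or outside both. The young panicle is the developing rice inflorescence, in which branches and spikelets form before the grain is filled. Gene models carry identifiers alone in the deposited table, and none of the 38714 could be matched to a symbol in a table of 39387 genes of another assembly. Genes are therefore named by identifier, what they encode is not stated, and no sequence is shown. The first 2 digits after the letter G run from 00 to 12 and are called identifier blocks here.

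One hybrid, RY308, stood farthest from the other 3 before any comparison was made. The 12 libraries held 32587413 to 41836959 counts, on 27226 to 29270 gene models. On the first principal component of the 12 libraries, which took 48.2% of the variance, RY308 lay at 78.8 to 90.0, while WY308 lay at 9.94 to 10.4, WY998 at -55.6 to -44.2 and RY998 at -55.1 to -38.1. On the second component (18.3%), WY308 lay at -68.4 to -29.1 and the other 3 hybrids at -8.40 to 34.1. RY308 was the line farthest from the other 3 hybrids in 57.1% of the 24748 genes tested. The WY998 and RY998 libraries correlated with each other, across genes, at 0.979 to 0.989, as highly as the libraries of WY998 did among themselves (0.979 to 0.987). WY308 and RY308 libraries correlated at 0.953 to 0.968, below every pair within either line (0.980 to 0.988 in WY308).

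The inbred lines gave a scale for how RY308 differed. In young panicles 1143 genes separated the inbred R998 and R308 from the inbred WFB and RFB, by at least 2-fold on average, with at least 5 CPM in the higher pair and with no overlap between the 6 libraries of either pair. Of these, 666 were higher and 477 lower in R998 and R308. On a scale from 0 at the mean of WFB and RFB to 1 at the mean of R998 and R308, the median gene stood at 0.827 ± 0.0124 in WY998, 0.817 ± 0.00504 in RY998 and 0.846 ± 0.0359 in WY308, and at 0.106 ± 0.00369 in RY308 (SD, n = 3 libraries each). WY998, RY998 and WY308 thus lay near the inbred R998 and R308 on these genes, and RY308 lay near the inbred WFB and RFB. The same scale drawn from the seedling libraries, on 398 genes, put WY998 at 0.501 ± 0.00767, RY998 at 0.511 ± 0.0128, WY308 at 0.494 ± 0.031 and RY308 at 0.524 ± 0.0296, all close to the middle. In filling panicles, on 692 genes, WY998 stood at 0.302 ± 0.0426 and RY308 at 0.293 ± 0.021, while RY998 stood at 0.611 ± 0.0279 and WY308 at 0.677 ± 0.0661. Of the seedling genes 207 were higher and 191 lower in R998 and R308, and of the filling panicle genes 292 were higher and 400 lower. Positions were taken on log2 levels, where this mix can move the median, so tissues are not strictly comparable. The inbred libraries alone chose these genes, so the hybrid positions are measurements the choice did not use, and they are given without a test. On the first principal component of all young panicle libraries, inbred lines included (40.9% of the variance), RY308 lay between R308 and RFB. RY308 lay at 22.1 to 28.5, R308 at -83.3 to -74.4, RFB at 84.1 to 96.0 and the other 3 hybrids at -51.1 to -34.2. Among tested young panicle genes above 1 CPM, RY308 lay between its parents in 52.5%, and the other 3 hybrids in 43.3% to 55.2%.

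**Figure D1:**
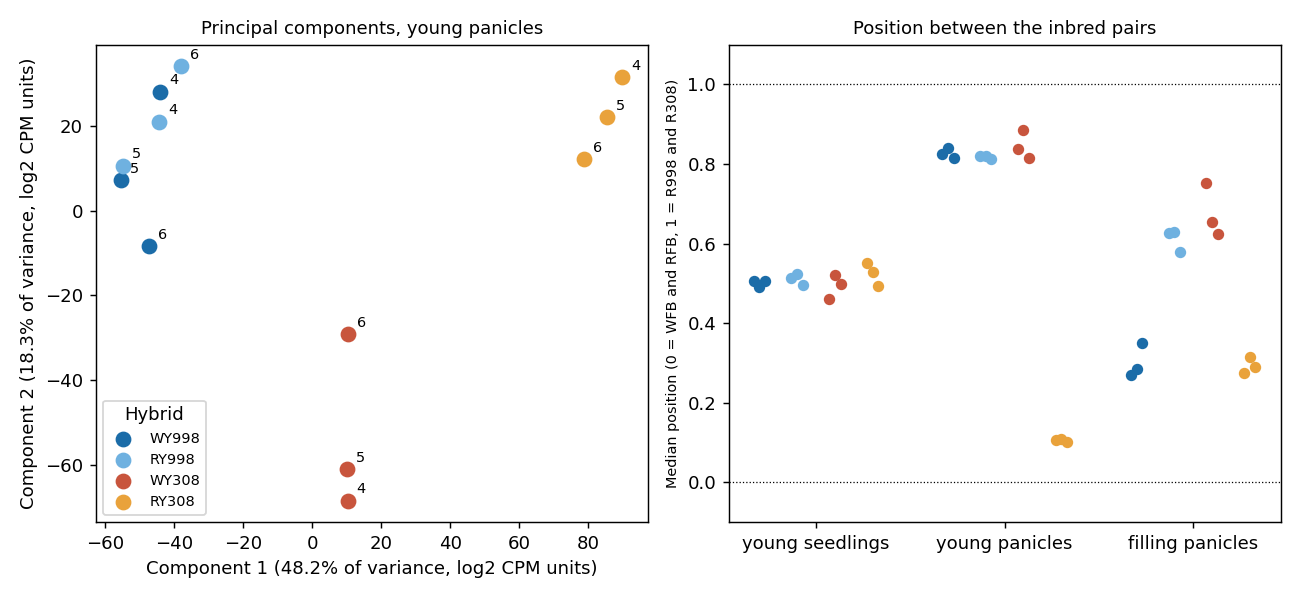
Left, each point is a young panicle library on the first 2 principal components of the 12 libraries (log2 CPM units), coloured by hybrid and numbered by replicate; RY308 lies alone at 78.8 to 90.0 on the first. Right, each point is a library's median position between the inbred WFB and RFB (0) and the inbred R998 and R308 (1) in each tissue; in young panicles RY308 lies near 0.106 and the other 3 hybrids lie above 0.8.

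Genes found in a single inbred line gave a check of the labelled crosses. Of these, 53 genes had at least 5 CPM (counts scaled to library size) in R998 and under 0.1 CPM in the other 3 inbred lines. Their median level was 0.443 ± 0.0266 of the R998 level in WY998 and 0.465 ± 0.0206 in RY998, against 0.0046 ± 0.00796 in WY308 and 0 in RY308 (SD, n = 3). Replicates 4, 5 and 6 of WY308 stood at 0, 0 and 0.0138. For the 14 genes found in R308 alone, the median was 0.00368 ± 0.0058 of the R308 level in WY998 and 0 in RY998, against 0.522 ± 0.0582 in WY308 and 0.517 ± 0.0602 in RY308. Replicates 4, 5 and 6 of WY998 stood at 0, 0.0007 and 0.0104. The 29 genes found in both WFB and RFB and in neither R998 nor R308 stood at 0.528 ± 0.0413 of their inbred level in RY308 and at 0.463 to 0.495 in the other 3 hybrids. Replicates 4, 5 and 6 of WY998 stood at 0.4366, 0.4385 and 0.6099. Of the 14 genes found in R308 alone, 1 had no count in any RY308 library, while WY308 had all 14. The 29 shared genes cannot tell WFB from RFB as a parent. The 1 gene found in WFB alone stood at 0.345 of the WFB level in WY998 and 0 in RY998, and at 0.277 in WY308 and 0.000633 in RY308, and 0 genes were found in RFB alone.

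In a pair of libraries, some genes found only in the inbred parent outside the cross passed 5% of that parent's level. The source of these counts was not tested. In WY998 replicate 6, 5 of the 14 genes found in R308 alone reached 8.37% to 18.9% of the R308 level, while the other 9 reached at most 1.41%. Block 11 holds 8 of the 14, and among those 8 these 5 follow one another in identifier order, from OsR498G1119903200.01 to OsR498G1120213700.01. The order is among these genes only, and other gene models may lie between them. In WY308 replicate 6, 49 of the 53 genes found in R998 alone had a count, with a median of 1.38% of the R998 level and a highest value of 6.89%. Named genes below whose results rest on either library are given with that library's value.

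The average over both crosses showed many small differences and fewer large ones. Of 24748 genes, 5348 passed an adjusted p of 0.05 in edgeR's quasi-likelihood test (21.6% of those tested), 2815 higher (11.4%) and 2533 lower (10.2%) in R998 hybrids. Without the genes of identifier block 00 the split turned to 2607 higher and 2756 lower. The median size of a called difference was 0.47 on the log2 scale, 1091 genes changed by at least 2-fold (4.41% of those tested, 613 higher and 478 lower) and 297 by at least 8-fold (192 higher and 105 lower). In 1124 of the called genes the 6 R998 libraries and the 6 R308 libraries did not overlap, 558 higher and 566 lower, and 4.66% of all tested genes had such a gap. RY308 was the line farthest from the other 3 in 75.8% of the called genes, a description since the same libraries made the calls. Without the 3 RY308 libraries the contrast called 1362 genes, and without the 3 WY308 libraries it called 9680. Either fit sets both R998 hybrids against a single R308 hybrid, so the other parent is then no longer balanced. The 1362 genes called without RY308 held 22.6% of the 5348.

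The largest differences were between a gene present at a moderate level and no detectable RNA. OsR498G0204305500.01 stood at 4.48 to 5.46 CPM in the R998 hybrids (median 5.20, n = 6) and had no count in any of the 6 R308 hybrid libraries. Against a floor of 3 counts over those 6 libraries it was at least 363-fold higher in the R998 hybrids (adjusted p = 1.65e-10). Its level in the inbred R998 was 7.91 ± 1.15 CPM, and in the inbred R308 0.0104 ± 0.0181 CPM from 1 library (SD, n = 3). OsR498G1018190000.01 stood at 12.5 to 14 CPM in the R998 hybrids (median 13.3), and in the R308 hybrids it had 0.215 CPM in WY308 replicate 6 and no count in the other 5 libraries. Its log2 difference was 9.70 ± 0.37 (SE, adjusted p = 4.76e-12), the average of 7.49 in the WFB crosses and 11.9 in the RFB crosses. Without WY308 replicate 6 it was 11.92, against no count in the R308 hybrids. Where a line has no count the fitted size depends on the prior count, so these values are not a measured size. The inbred R998 had 28.3 ± 1.03 CPM. Both genes had no count in the inbred WFB and RFB, and the R998 hybrids stood between that and the inbred R998.

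The reverse pattern was led by OsR498G1120249400.01. It had 1 count over the 6 R998 hybrid libraries, in RY998 replicate 6, and 5.63 to 9.86 CPM in WY308 and 8.86 to 10.36 CPM in RY308 (median of the 6 libraries 8.97). The R308 hybrids exceeded the R998 hybrids by a count ratio of 1770, with an exact 95% counting interval from 318 to 70100 (adjusted p of the difference = 1.32e-11). OsR498G0611710100.01 likewise had 1 count in the R998 hybrids, in WY998 replicate 4, and 4.13 to 7.50 CPM in the R308 hybrids (median 5.29). Its ratio was 1110, with an interval from 199 to 44000 (adjusted p = 6.63e-08). The inbred R308 held these genes at 14.2 ± 0.537 and 9.28 ± 0.988 CPM (SD, n = 3), and the inbred R998 at 0.0261 ± 0.0239 and 0.168 ± 0.271 CPM.

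Genes detected well in both groups differed less. OsR498G0100940200.01 stood at 37.8 to 51.7 CPM in the R998 hybrids (median 38.4) and at 3.54 to 6.78 CPM in the R308 hybrids (median 5.51), a log2 difference of 2.89 ± 0.13 (SE, adjusted p = 1.16e-13). WY998 replicate 6 gave the 51.7 CPM and the other 5 R998 libraries lay at 37.8 to 38.7 CPM. OsR498G0714342800.01 stood at 27.4 ± 4.29 CPM in WY998 and 33.8 ± 3.55 CPM in RY998, against 5.94 ± 0.283 CPM in WY308 and 8.05 ± 0.258 CPM in RY308 (SD, n = 3), with a log2 difference of 2.14 ± 0.11 (adjusted p = 8.61e-13). Both were high in the inbred R998 alone, at 85.7 ± 12.8 and 62.5 ± 1.08 CPM, against means of 5.19 and 5.63 CPM in the inbred R308.

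Of the genes lower in R998 hybrids, OsR498G0305308400.01 stood at 4.88 ± 1.16 CPM in WY998 and 5.44 ± 0.924 CPM in RY998, against 29.1 ± 2.34 CPM in WY308 and 42.9 ± 0.311 CPM in RY308. The log2 difference was -2.77 ± 0.10 (SE, adjusted p = 3.58e-15). OsR498G0306367200.01 stood at 8.68 to 10.5 CPM in the R998 hybrids (median 9.67) and at 27.6 to 40.3 CPM in the R308 hybrids, a log2 difference of -1.80 ± 0.07 (adjusted p = 1.26e-14). The rule that named these genes required the 6 R998 libraries not to overlap the 6 R308 libraries, so that gap is no further evidence. Within the R308 hybrids, RY308 was the higher line for both.

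**Figure D2:**
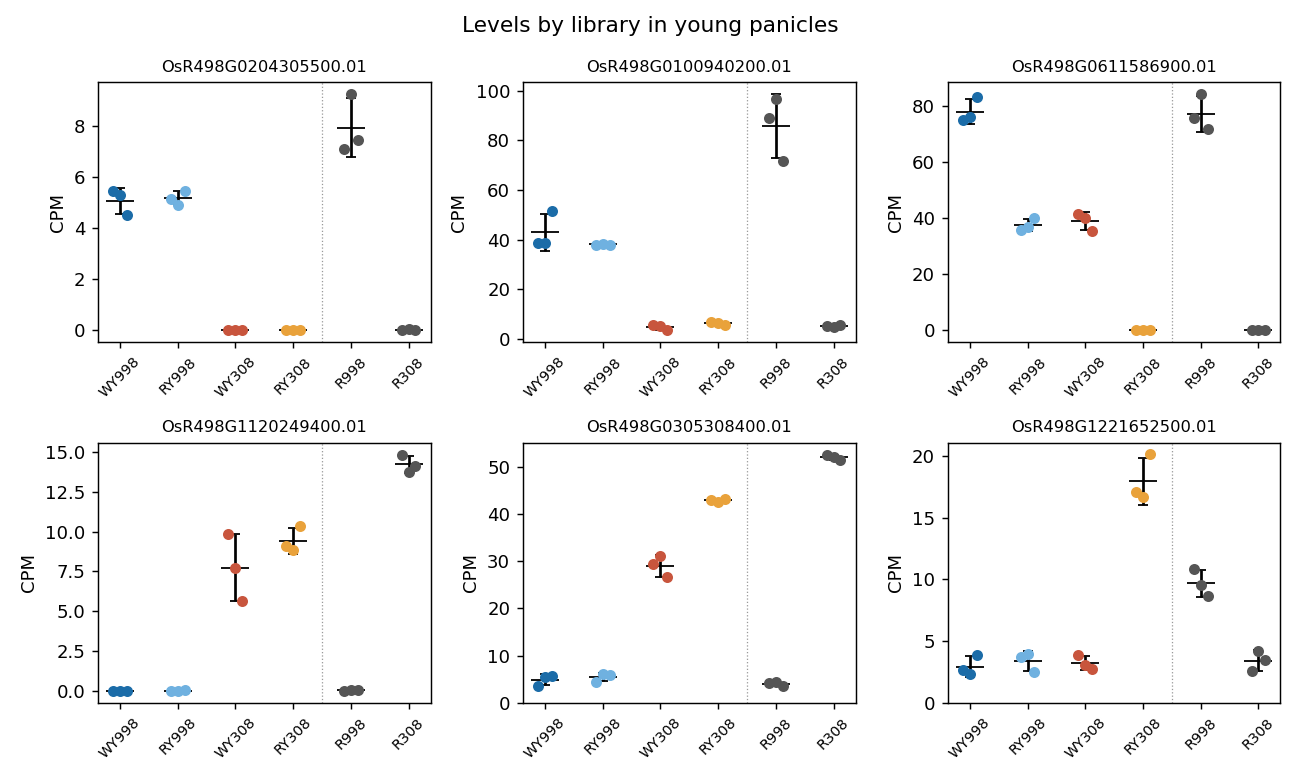
Each panel shows a gene's level in CPM in the 3 libraries of WY998, RY998, WY308 and RY308 and, right of the dotted line, of the inbred R998 and R308; bars give the mean and the SD (n = 3). OsR498G0204305500.01 and OsR498G0100940200.01 are high in both R998 hybrids, OsR498G1120249400.01 and OsR498G0305308400.01 in both R308 hybrids, and OsR498G0611586900.01 and OsR498G1221652500.01 differ between RY308 and the other 3 hybrids.

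The difference between the R998 and R308 hybrids was of unlike extent in the crosses with WFB and with RFB. Between WY998 and WY308, 976 genes were called (3.94% of those tested), 537 higher (2.17%) and 439 lower (1.77%) in WY998, with a median size of 1.14 on the log2 scale. Between RY998 and RY308, 7329 genes were called (29.6%), 3780 higher (15.3%) and 3549 lower (14.3%) in RY998, with a median size of 0.66. Changes of at least 2-fold numbered 546 in the WFB crosses (2.21%) and 2327 in the RFB crosses (9.4%). Changes of at least 8-fold were closer in number, at 260 in the WFB crosses and 437 in the RFB crosses. The difference between the crosses, tested itself as an interaction, was called for 2581 genes (10.4%), 1054 with a more positive R998 minus R308 difference in the WFB crosses (4.26%) and 1527 with a more positive one in the RFB crosses (6.17%). RY308 is the sole R308 hybrid of the RFB crosses, so in these counts and in the average contrast its R308 parent and anything else that sets its libraries apart, such as how its panicles were sampled, which is not labelled, cannot be told apart. Leaving out a single library moved the counts of the WFB crosses, the RFB crosses and the interaction to between 750 and 977, 5395 and 7703, and 1903 and 3179.

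Genes called in both crosses numbered 797, which was 81.7% of the WFB list and 10.9% of the RFB list. Of these, 777 had the same direction, 415 higher and 362 lower with R998, and 20 had opposite directions. The crosses share no library. Across all tested genes the 2 sets of log2 differences correlated at r = 0.613, a description over genes that are not independent replicates. Within the average contrast, 777 of the 5348 called genes were called in both crosses in the same direction. Another 3926 were called in the RFB crosses alone, 143 in the WFB crosses alone and 496 in neither. The few others were called in both crosses in opposite directions.

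**Figure D3:**
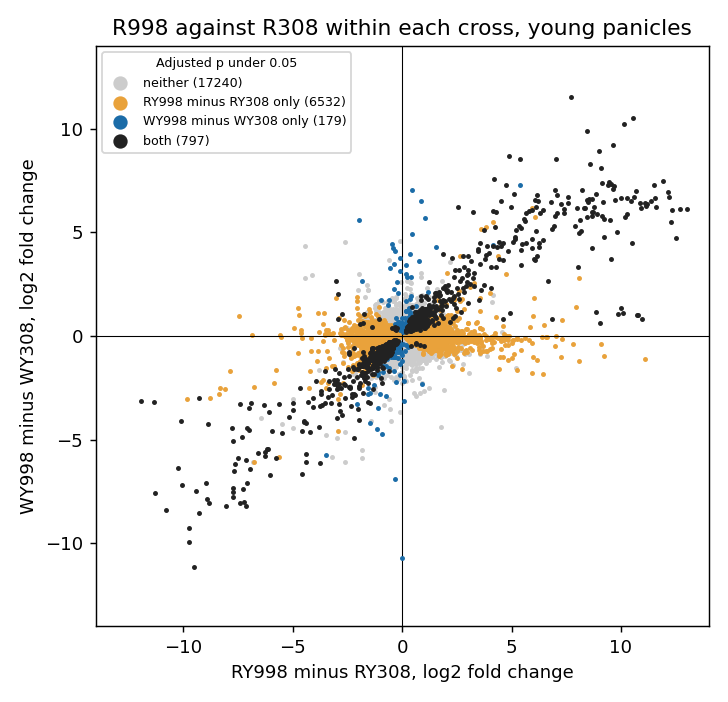
Each point is a tested gene, with its log2 difference between RY998 and RY308 on the horizontal axis and between WY998 and WY308 on the vertical axis; colours give adjusted p under 0.05 in either, both or neither cross. The 777 genes called in both with the same direction lie in the lower left and upper right, and the 6532 genes called in the RFB crosses alone spread along the horizontal axis.

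Of genes whose R998 and R308 libraries did not overlap within either cross, those with the largest interactions towards a more positive difference in the RFB crosses were high in the inbred R998 and WFB. OsR498G0307156500.01, whose libraries overlapped in the WFB crosses, had an interaction of like size (-10.15 on the log2 scale). OsR498G0611586900.01 was high in the inbred R998 and WFB, at 77.3 ± 6.37 and 65.6 ± 1.70 CPM, and was at 0.0634 ± 0.0375 and 0.0652 ± 0.0441 CPM in the inbred R308 and RFB (SD, n = 3). Among the hybrids it stood at 78.1 ± 4.47 CPM in WY998 and 37.6 ± 2.12 CPM in RY998, against 39.0 ± 3.30 CPM in WY308 and 0.0173 ± 0.015 CPM in RY308. Levels went with the number of parents in which the RNA was high, and whether the gene is missing from the other parents or only not counted there cannot be told apart. The R998 hybrids were higher in the WFB crosses (adjusted p = 5.12e-07) and in the RFB crosses (adjusted p = 1.09e-19). OsR498G0408431100.01 followed the same order, at 12.2 to 15.5 CPM in WY998 and 5.77 to 7.77 CPM in RY998, against 5.66 to 9.54 CPM in WY308 and no count in RY308. Its interaction had an adjusted p of 3.68e-09, and that of OsR498G0611586900.01 one of 8.34e-17.

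In the other direction, both leading genes had a high value in a single library, WY998 replicate 6. OsR498G1119903200.01 stood at 0, 0.0883 and 12.1 CPM in WY998 replicates 4, 5 and 6 and at 0.0302, 0 and 0 CPM in RY998, against 45.8, 35.7 and 28.1 CPM in WY308 and 31.8, 32.8 and 35.2 CPM in RY308. Its interaction was 8.16 ± 2.35 on the log2 scale (SE, adjusted p = 0.0324), and without WY998 replicate 6 it was 1.78 with an adjusted p of 0.496. The call was also lost without WY308 replicate 5, any RY998 library or RY308 replicate 4 or 5 (adjusted p = 0.052 to 0.0865). OsR498G1120000600.01 stood at 0.0305, 0.147 and 4.08 CPM in WY998 and had no count in RY998, against 12.2, 12.6 and 11.7 CPM in WY308 and 13.4, 12.6 and 14 CPM in RY308, with an interaction of 8.80 ± 2.24 (adjusted p = 0.0153). Without WY998 replicate 6 the interaction was 4.89 (adjusted p = 0.0346), and it had an adjusted p of 0.112 with the 12 hybrid libraries fitted alone. The R998 hybrids were lower than the R308 hybrids in both crosses for each gene.

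The inbred parents R998 and R308 differed in 6457 genes of their own young panicles (26.1%), and the crosses followed them to unequal degrees. Of the 976 genes called between WY998 and WY308, 888 were also called between the inbred lines (91.0%), and all 888 had the same direction. Of the 7329 called between RY998 and RY308, 2666 were called between the inbred lines (36.4%), 1617 in the same direction and 1049 in the opposite one. For the average contrast the numbers were 2317 of 5348, of which 1779 had the same direction and 538 the opposite. Of the 777 genes called alike in both crosses, 743 were called between the inbred lines and all 743 in the same direction.

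A predicted difference was then taken from the inbred lines as the log2 ratio of the mid-parents of the paired crosses. Over 20728 genes above 1 CPM, the difference between WY998 and WY308 had a slope of 0.65 on the predicted one (r = 0.808 across genes). Over 20734 genes, that between RY998 and RY308 had a slope of 0.78 (r = 0.593). Where the prediction was at least 0.5 in size on the log2 scale, the observed sign matched it in 81.7% of genes in the WFB crosses and in 51.9% in the RFB crosses. Genes predicted lower in the R998 hybrid by at least 0.5 had a median prediction of -0.75 and a median observed difference of -0.41 in the WFB crosses. In the RFB crosses their median prediction was -0.80, and their median observed difference was 0.33, of the opposite sign. Genes predicted higher had observed medians of 0.46 in the WFB crosses and 0.65 in the RFB crosses, against predictions of 0.78 and 0.86. Among called genes above 1 CPM, 5.95% of 756 in the WFB crosses and 46.1% of 6516 in the RFB crosses had a predicted difference under 0.1 in size. The share over all genes above 1 CPM was not computed, so no excess or deficit can be read from these.

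**Figure D4:**
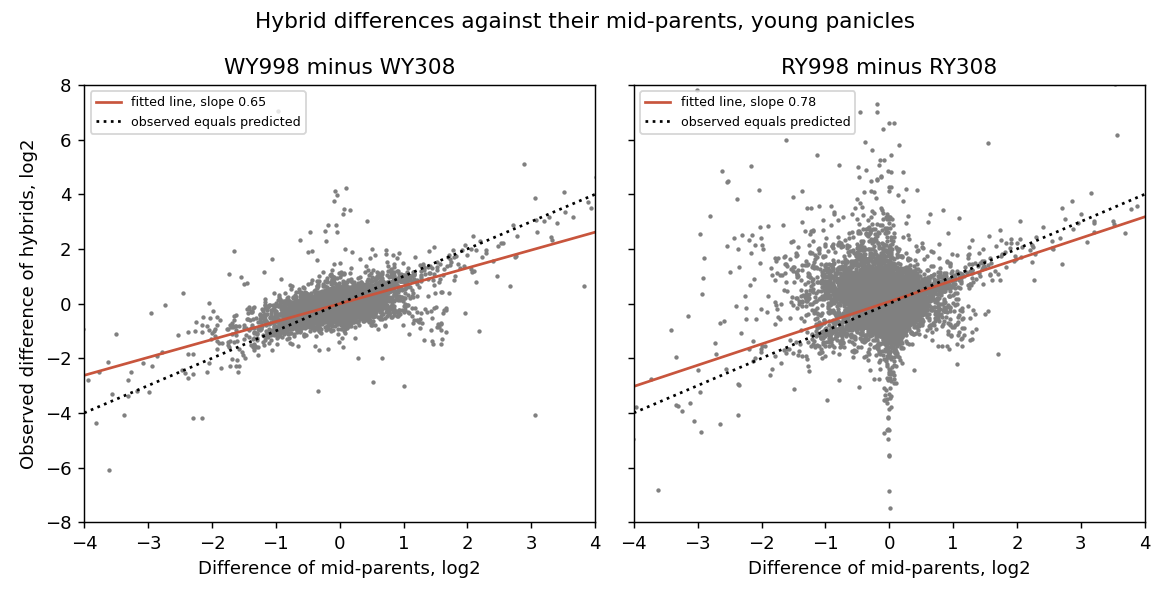
Each point is a gene above 1 CPM, with the log2 difference of the mid-parents on the horizontal axis and the observed log2 difference of the hybrids on the vertical axis, for the WFB crosses (left) and the RFB crosses (right); 101 and 117 genes lie outside the axes. The red line is the fit, with slopes of 0.65 and 0.78, and the right panel has a wide column of genes with a prediction near 0.

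The RFB differences ran along the separation of the inbred pairs. Of the 7329 genes called between RY998 and RY308, 6257 (85.4%) had the sign of the inbred difference of R998 and R308 from WFB and RFB, against 71.3% over all tested genes. For the 976 genes called between WY998 and WY308 the share was 53.2%, against 47.2% over all tested genes. Among the 1143 genes that separated the inbred pairs, 801 (70.1%) were called between RY998 and RY308, against 29.6% of all tested genes, and 751 of them had the inbred sign. Between WY998 and WY308 it was 73 (6.39%), against 3.94% of all tested genes, and 32 of them had that sign. The hybrid and inbred libraries are different libraries, and the genes are not independent of each other.

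Some genes went against the inbred parents. OsR498G1221652500.01 stood at 2.93 ± 0.825 CPM in WY998 and 3.38 ± 0.797 CPM in RY998, against 3.22 ± 0.571 CPM in WY308 and 18.0 ± 1.91 CPM in RY308 (SD, n = 3). The inbred lines had 9.67 ± 1.11 CPM in R998 and 3.42 ± 0.833 CPM in R308, and 20.7 ± 0.725 and 17.3 ± 1.27 CPM in WFB and RFB. The average log2 difference of the hybrids was -1.28 ± 0.14 (SE, adjusted p = 2.59e-07), the inbred R998 was higher than the inbred R308 (adjusted p = 2.5e-06), and without RY308 the hybrid difference was -0.04 (adjusted p = 0.945). OsR498G0816567400.01 stood at 0.428 to 11.1 CPM in the R998 hybrids and 10.1 to 21.2 CPM in the R308 hybrids, with a log2 difference of -1.30 ± 0.42 (adjusted p = 0.0312) and libraries that overlapped. The call was lost without WY998 replicate 5, WY308 replicate 4 or 5, RY998 replicate 6 or RY308 replicate 4 or 5 (adjusted p = 0.0538 to 0.083), with the 12 hybrid libraries fitted alone (0.111), and without the line WY998 (0.0758), RY998 (0.0503) or RY308 (0.278).

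The genes that were higher in R998 hybrids and lower in the inbred R998 varied widely between replicates. OsR498G0307156500.01 stood at 4.43, 26.9 and 58.7 CPM in WY998 and 45.9, 93.1 and 8.22 CPM in RY998, against 142, 21.9 and 9.47 CPM in WY308 and 0, 0.0549 and 0.184 CPM in RY308. Its average log2 difference was 4.13 ± 1.21 (SE, adjusted p = 0.0161), and it was -0.59 without RY308 (adjusted p = 0.843). OsR498G0102788800.01 stood at 3.46 to 23.5 CPM in the R998 hybrids, against 4.46 to 52.1 CPM in WY308 and 0.386 to 0.796 CPM in RY308. Its log2 difference of 1.94 ± 0.68 (adjusted p = 0.0456) was -0.70 without RY308 (adjusted p = 0.737). The call was also lost without any of 9 single libraries (adjusted p = 0.0704 to 0.108; WY998 replicates 5 and 6, WY308 replicates 5 and 6, RY998 replicates 4 and 5, and RY308 replicates 4, 5 and 6), without the line WY998 (0.12) or RY998 (0.0743), with the 12 hybrid libraries fitted alone (0.0782) and with DESeq2 (0.0689). The call of OsR498G0307156500.01 was also lost without the line RY998 (adjusted p = 0.0528). Neither gene was separated between WY998 and WY308, with adjusted p-values of 0.849 and 0.877.

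The called genes were not evenly spread along the identifiers. In 240 windows of 100 tested genes in identifier order, the share called between WY998 and WY308 ran from 0 to 31% with an SD of 4.72 percentage points, and 46 windows held no called gene. Between RY998 and RY308 the share ran from 16% to 47% with an SD of 5.63 points, and no window was empty. The fullest window of the WFB crosses was the 12th of block 01, with 31% called there, 41% in the RFB crosses and 51% between the inbred R998 and R308. Across windows, the share in the WFB crosses correlated with that of the inbred parents at r = 0.804 and the share in the RFB crosses at r = 0.473, given as a description because the shares come from the same genes at the same depths. By block, the share called in the WFB crosses was highest in block 11, at 7.69% of 1379 tested genes, and lowest among blocks 01 to 12 in block 03, at 1.72% of 3194. In the RFB crosses the same blocks had 31.0% and 30.2%.

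**Figure D5:**
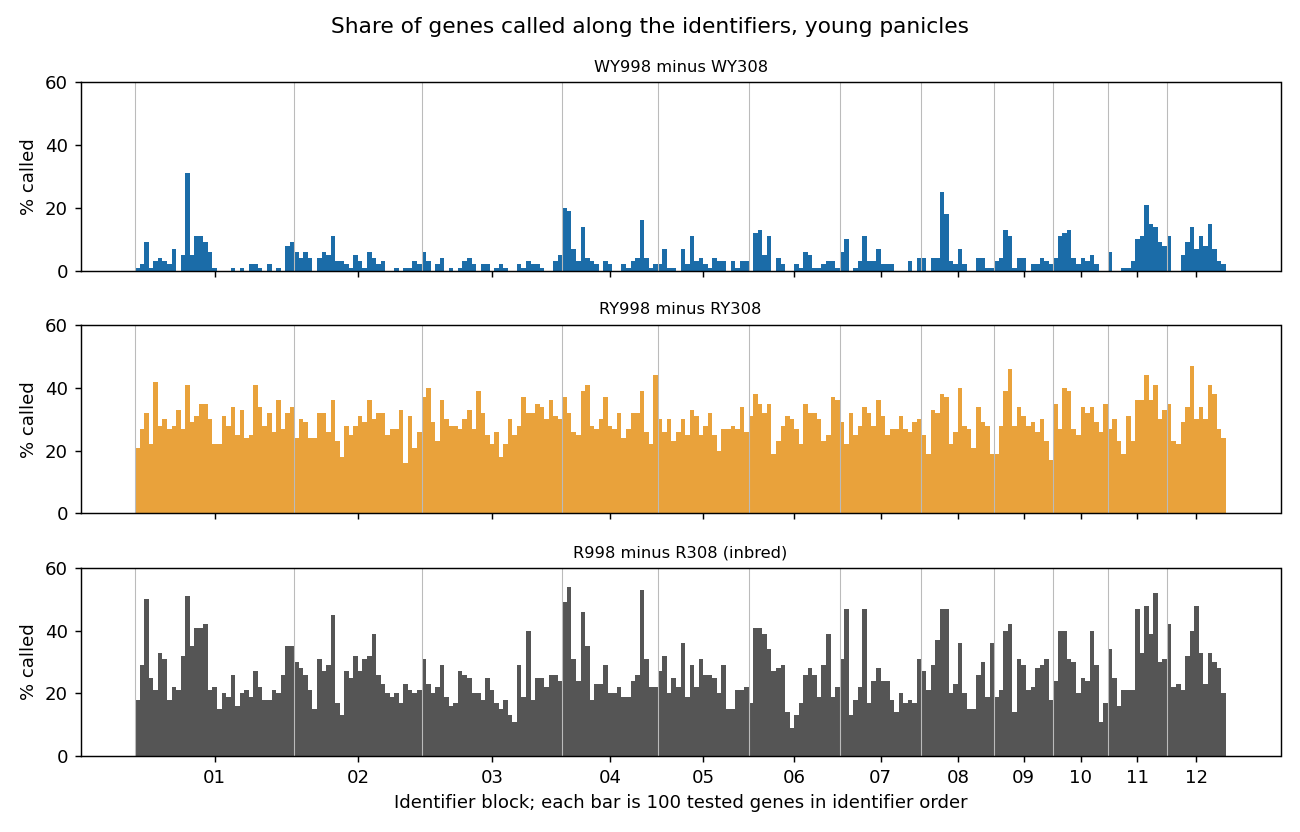
Each bar is the percentage of 100 consecutive tested genes called at adjusted p under 0.05, in identifier order with blocks 01 to 12 divided by lines, between WY998 and WY308 (top), RY998 and RY308 (middle) and the inbred R998 and R308 (bottom). The top panel has peaks of up to 31% and 46 empty windows, several of the peaks standing over peaks of the bottom panel, and the middle panel stays between 16% and 47%.

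Sets of tissue-enriched genes, drawn from the inbred lines by an excess of at least 8-fold over either other tissue, were used in place of named marker genes. The 1297 young panicle genes took 9.51% ± 0.439 of the counts in the R998 hybrids and 9.20% ± 0.564 in the R308 hybrids (SD, n = 6), an exact permutation p of 0.335 (two-sided, within crosses, adjusted p = 0.68 over 3 sets). The 900 seedling genes took 4.13% ± 0.467 in the R998 hybrids and 4.26% ± 0.655 in the R308 hybrids (exact permutation p = 0.66, adjusted p = 0.68). Within the R308 hybrids this set stood at 4.76% ± 0.494 in WY308 and 3.77% ± 0.294 in RY308 (SD, n = 3). The 1284 filling panicle genes took 0.253% ± 0.0551 in the R998 hybrids and 0.235% ± 0.0177 in the R308 hybrids (exact permutation p = 0.68), and the 0.365% of WY998 replicate 6 stood above the 0.224% to 0.239% of the other 5 R998 libraries. In the average contrast, 100 of 1292 tested young panicle genes were higher and 62 lower in R998 hybrids, 12.5% of them, against 21.6% of all genes. The seedling set had 68 higher and 120 lower of 601, or 31.3%, and the filling panicle set 64 higher and 43 lower of 486, or 22.0%. Between RY998 and RY308, against 29.6% of all tested genes, 204 young panicle genes were higher and 73 lower in RY998 (21.4% of the set), 120 seedling genes higher and 140 lower (43.3%), and 81 filling panicle genes higher and 46 lower (26.1%). In bulk tissue, a smaller share of a cell type and less RNA per cell cannot be told apart.

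The same contrast was fitted in the other tissues. In young seedlings 1646 of 21813 genes were called (7.55%), and in filling panicles 2676 of 25336 (10.6%). Of the 4792 young panicle calls that were also tested in seedlings, 838 were called there in the same direction. These were 17.5% of the 4792 and 56.2% of the 1490 seedling calls that were tested in both tissues. For filling panicles it was 1027, or 19.9% of the 5161 young panicle calls and 41.3% of the 2489 filling panicle calls tested in both tissues. In seedlings the crosses were alike in extent, with 942 genes called between WY998 and WY308, 1161 between RY998 and RY308 and 20 interactions. Filling panicles had 5519 calls in the WFB crosses, 4700 in the RFB crosses and 5526 interactions. The young panicle calls of the RFB crosses kept their sign in 80.9% of cases between RY998 and RY308 in filling panicles and in 52.9% in seedlings, while those of the WFB crosses kept theirs in 86.0% and 87.4%. The share of all tested genes that kept their sign was not computed, so no excess over it can be read from these.

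Of 20594 genes tested in all 3 tissues, 583 were called in each with the same direction, 304 higher and 279 lower in R998 hybrids. Between the inbred R998 and R308, 565 of these were called in young panicles with that direction as well. OsR498G0204305500.01 was among them, at 247 ± 57.0 CPM in R998 hybrid seedlings against 0.0738 ± 0.0776 CPM in R308 hybrid seedlings, and at 26.4 ± 7.79 against 0.0968 ± 0.237 CPM in filling panicles (SD, n = 6). OsR498G0407502900.01 stood at 6.01 to 9.87 CPM in R998 hybrid young panicles and at 0 to 0.277 CPM in R308 hybrid young panicles, the highest of these in WY308 replicate 6. In seedlings it had 6.07 ± 2.12 CPM in the R998 hybrids and no count in the R308 hybrids, and in filling panicles 5.88 ± 1.06 against 0.0221 ± 0.0542 CPM. In the other direction, OsR498G0102662000.01 had 3 counts in the R998 hybrid young panicles and 4.67 to 10.3 CPM in the R308 hybrids, a count ratio of 527 with an exact 95% interval from 180 to 2560. Its seedling levels were 0.0136 ± 0.0226 CPM in the R998 hybrids and 28.5 ± 12.5 CPM in the R308 hybrids. OsR498G1119903200.01, described above for WY998 replicate 6, had no count in R998 hybrid seedlings and 13.8 ± 1.36 CPM in R308 hybrid seedlings.

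The lists also differed in level. Per length, the genes called between WY998 and WY308 had a median level of 3.42 FPKM (fragments scaled to gene length and library size), those called between RY998 and RY308 8.79 FPKM, and all tested genes 7.86 FPKM. Median gene lengths were 1436, 1512 and 1488 bases. A length was found for 94.7% of the tested genes.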

How the data were processed

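Total RNA was sequenced from rRNA-depleted, stranded libraries per the labels' protocols, and the submitters' processing notes name HISAT2. Version, build, annotation and counter were not given in the sources used here, so genes that share reads with near-identical copies are uncertain. The authors deposited whole-number counts for each gene model, without normalization, and FPKM values; the FPKM values were used only for gene length and level per length. Groups came from the labels for line and tissue. The 27 libraries of each tissue were fitted in R 4.3.3 with edgeR 4.0.16 (filterByExpr, TMM, 1 mean per line, quasi-likelihood test, two-sided, Benjamini-Hochberg adjustment, threshold 0.05). CPM values are scaled by TMM-adjusted library sizes. The SE of a log2 difference was back-calculated as its absolute size over the square root of the F statistic. It is unreliable where a line is at or near 0. Shares of counts were compared by an exact permutation test over 400 relabellings within crosses, whose smallest p is 0.005. Floors of 3 counts and intervals cover counting error only. Tests were checked on simulated counts.

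Named genes were the 2 largest differences in each direction with at least 5 CPM in the higher group, as follows: over all 12 libraries without overlap; the same with 5 CPM in both groups; in all tissues; in the interaction, without overlap in either cross; and opposite to the inbred parents. The members, lists and tests were chosen with earlier results of these data known. The genes separating the inbred pairs, the counts relative to RY308 and the fits without block 00 or without a line were chosen after seeing the data. Alternatives were DESeq2 1.42.0, its size factors in edgeR, no filter, a replicate block, the 12 hybrid libraries alone and each library left out.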

Additional observations from a re-analysis of the deposited data

Results flagged for a closer look

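In 10 of 42 sets of 6 libraries, 1 library lay far from the other 5 of its group. The rule flags about 1 in 20 sets drawn from a single normal population. That rate does not apply here, as each set pools different hybrids, several lie near 0 and the named genes were chosen from these data. WY998 replicate 6 accounted for 4 of the 10, in part through genes named for interactions that its own values enlarged. It had 0.365% of its counts on the filling panicle set, against 0.224% to 0.239% in the other R998 hybrid libraries. It also held 12.1 CPM of OsR498G1119903200.01 (others 0 to 0.0883), 4.08 CPM of OsR498G1120000600.01 (others 0 to 0.147) and 51.7 CPM of OsR498G0100940200.01 (others 37.8 to 38.7). WY308 replicate 6 held 0.215 CPM of OsR498G1018190000.01 (others 0) and 0.277 CPM of OsR498G0407502900.01 (others 0 to 0.0287), and both genes were found in R998. WY308 replicate 4 held 142 CPM of OsR498G0307156500.01 (others 0 to 21.9) and 52.1 CPM of OsR498G0102788800.01 (others 0.386 to 9.32). Single counts gave the values of RY998 replicate 6 for OsR498G1120249400.01 (0.0249 CPM) and of WY998 replicate 4 for OsR498G0611710100.01 (0.0305 CPM).

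The difference between the R998 and R308 hybrids was unlike in the crosses with WFB and with RFB for 2581 genes, tested as an interaction in edgeR. Among the named genes the log2 interaction was -10.15 for OsR498G0307156500.01, -10.09 for OsR498G0408431100.01, -9.80 for OsR498G0611586900.01 and -5.12 for OsR498G0102788800.01. It was 8.80 for OsR498G1120000600.01, 8.16 for OsR498G1119903200.01, 2.27 for OsR498G1221652500.01 and 0.46 for OsR498G0306367200.01. Where a line is at or near 0, the fitted size depends on the prior count and is no bound.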

How the results depend on the processing

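The counts of called genes in young panicles stayed within 1.5 times of those reported with DESeq2, with its size factors, without a filter on low counts and without block 00. For the average contrast they ran from 4790 to 5836 under these. Without block 00, which changes the scaling, the RFB crosses had 3542 higher and 3872 lower calls. The 12 hybrid libraries fitted alone gave 3973 calls for the average (71.6% of the calls kept), 706 for the WFB crosses and 5665 for the RFB crosses. The exceptions were the interaction with the 12 hybrid libraries fitted alone (1676 genes, with no inbred libraries in the estimate of spread), and the average contrast without WY308 (9680) and without RY308 (1362); the cause was not tested. With each library left out in turn, the counts ran from 4422 to 5803 for the average contrast, 750 to 977 for the WFB crosses, 5395 to 7703 for the RFB crosses, 1903 to 3179 for the interaction and 4754 to 5857 for the inbred parents. The average contrast ran from 1413 to 1692 in seedlings and from 2024 to 2877 in filling panicles.

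Of 45 same-numbered pairs of libraries, 10 had deviations correlated above 0.1 (-0.415 to 0.342), so replicate numbers were not taken to pair samples. A replicate block gave 5133 calls for the average contrast, 904 for the WFB crosses, 7084 for the RFB crosses, 2373 for the interaction and 6272 for the inbred parents; in seedlings it gave 1609 and in filling panicles 2436. With the block the interaction of OsR498G1119903200.01 had an adjusted p of 0.056.

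Differences in the shares of tissue-enriched genes passed no threshold under any alternative run. With single libraries left out they ran from 0.118 to 0.501 percentage points for the young panicle set, -0.00509 (without WY998 replicate 6) to 0.0300 for the filling panicle set and -0.258 to 0.00554 for the seedling set, which also turned to 0.00414 without RY998 replicate 6 (the highest without WY308 replicate 4). In genes called between the inbred parents the slopes on the prediction were 0.75 for the average, 0.68 for the WFB crosses and 0.83 for the RFB crosses. With windows of 50 genes the SDs were 5.33 and 7.59 points for the WFB and RFB crosses. With a limit of 20 CPM, only 2 genes of R308 alone were left, with means of 0.0622 of R308 in WY998 and 7.84e-05 in RY998. The WY998 mean came from replicate 6, at 0.182, against 0.0007 and 0.0038 in replicates 4 and 5. Among 423 recomputed values of the named genes, 386 kept direction and call, 35 lost the call and 2 reversed, both without RY308: -0.59 for OsR498G0307156500.01 and -0.70 for OsR498G0102788800.01. Depth limits genes near 0, where a few counts set the fitted size.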
